A study of Sus scrofa with 4 samples.

Results

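The genes described here are nuclear genes for protein subunits of respiratory chain complexes I to IV, with cytochrome c. They were chosen by name, with earlier results of these data known. Of 34 named genes, 25 have a row among the 20648 genes of the count tables. They are 13 subunits of complex I (NDUFA1, NDUFA2, NDUFA6, NDUFA9, NDUFB3, NDUFB8, NDUFB9, NDUFB10, NDUFS1, NDUFS3, NDUFS5, NDUFV1 and NDUFV2), the 4 subunits of complex II (SDHA, SDHB, SDHC and SDHD), UQCRB of complex III, the electron carrier cytochrome c (CYCS), and 6 subunits of complex IV (NDUFA4, COX5B, COX6A1, COX6C, COX7A2 and COX7C). The other 9 names (UQCRC1, UQCRC2, UQCRQ, UQCRH, COX4I1, COX5A, COX6B1, COX7B and COX8A) matched no row and were not analysed here, so complex III rests on 1 gene. The 25 genes lie on 12 chromosomes of the Sscrofa11.1 pig genome, among them CYCS at chr18:47169921-47172212, NDUFA4 at chr9:80637005-80644067 and NDUFS1 at chr15:109413726-109451813.

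The respiratory chain moves electrons from fuel molecules to oxygen and pumps protons across the inner mitochondrial membrane, and ATP synthase uses the proton gradient to make ATP. Complex I takes electrons from NADH, complex II from succinate in the citric acid cycle, complex III hands them to cytochrome c, and complex IV passes them to oxygen. Most subunits are coded in the nucleus and imported, while the catalytic core of complexes I, III and IV also holds subunits coded in mitochondrial DNA. In bone, osteoclasts, the multinucleate cells that resorb mineral, are known for their many mitochondria, and mature neutrophils are known to live mainly on glycolysis.

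The libraries are droplet single-cell libraries (10x Genomics 3′ chemistry, counted in unique molecular identifiers, UMIs) from regenerated bone of Bama mini-pigs, a small domestic breed, aged 8 months. There are 2 libraries labelled with the peptide called 1797 and 2 labelled with a control peptide; the bone was digested with collagenase and red cells were lysed in both groups. Nothing in the labels states whether each library is a different animal, so p-values measure only the spread between these libraries, which may be technical. The design text speaks of more control samples than these, and those were not analysed here.

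The 4 libraries held 12133 to 14496 barcodes and 87844389 to 98758412 UMIs, and 11466 to 12765 cells per library were kept, 49137 in all. Median depth over all kept cells was lower in the 1797 libraries, at 3863 and 3145.5 UMIs against 5345 and 4606 for the controls. This did not hold for the totals or in every class. The second 1797 library had the most UMIs, 98758412. Its median was the highest in dendritic cell-like cells (23189 against 17093 to 21364). In monocyte-like cells it was below both controls (17224.5 against 17945 and 20116.5). The first 1797 library had the highest median mitochondrial share, 4.18% against 2.82% to 2.97% in the others. Any pair of libraries shared 42 to 63 cell barcodes. Clustering without the respiratory chain, other listed metabolic, mitochondrial and ribosomal genes gave 44 clusters. Markers named 16 classes, and 17 clusters with 7362 cells (14.98%) stayed unnamed. Compared below are 12 classes that reach 20 cells in their smallest library; osteoclast-like cells (253 cells, 37 in the smallest library), erythroid-like cells (37 in the smallest) and stromal or osteoblast-like cells (45 in the smallest) are small. All class names mean clusters that carry the markers of that type. The 10 leading genes of the osteoclast-like cluster held 2 of the osteoclast markers, ATP6V0D2 in the lead and ACP5 behind DGKI, ANKH, RIMBP2 and CD109. The 9 osteoclast markers summed to 6271 to 17472 CPM there (UMIs scaled to the same total in each library), against 606 to 1281 in macrophage-like cells.

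The first question is where in the tissue these genes were expressed. Of the 12 classes compared, osteoclast-like cells had the highest level of the subunits. Summed over the 25 genes, the level in osteoclast-like cells was 4008 and 3759 CPM with peptide 1797 and 3658 and 3830 with the control peptide, 3814 ± 148 (SD, n = 4 libraries). Macrophage-like cells, which share a precursor with osteoclasts, came second with 2672, 2705, 2310 and 2743 CPM in the same order (2607 ± 200). The lowest osteoclast-like library lay above the highest macrophage-like library, and the lowest macrophage-like library lay above all libraries of each of the other 10 classes. With all libraries pooled, 2 unnamed clusters of low depth were above the osteoclast-like cells (3817 CPM), with 7230 in cluster 7 and 5190 in cluster 17, and so was cluster 12 within the macrophage-like class, with 4849. Plasma cell-like cells, too few to be compared, were at 2732.

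Below these came a middle group whose libraries overlapped with their neighbours: dendritic cell-like cells at 1797 ± 176 CPM, monocyte-like at 1637 ± 222, stromal or osteoblast-like at 1585 ± 167, plasmacytoid dendritic cell-like at 1584 ± 232 and endothelial-like at 1266 ± 65.5. All 4 endothelial-like libraries (1184 to 1340) lay above the 4 B cell-like libraries (886 to 1159). B cell-like (1056 ± 118), T cell-like (1048 ± 59.4), NK or cytotoxic T-like (965 ± 56.1) and erythroid-like cells (917 ± 99.2) overlapped. Neutrophil-like cells had the lowest mean and the widest relative spread, at 517 and 755 CPM with peptide 1797 and 510 and 972 with the control peptide (689 ± 220). The sum of all kept cells stood at 1534 ± 108.

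**Figure D1:**
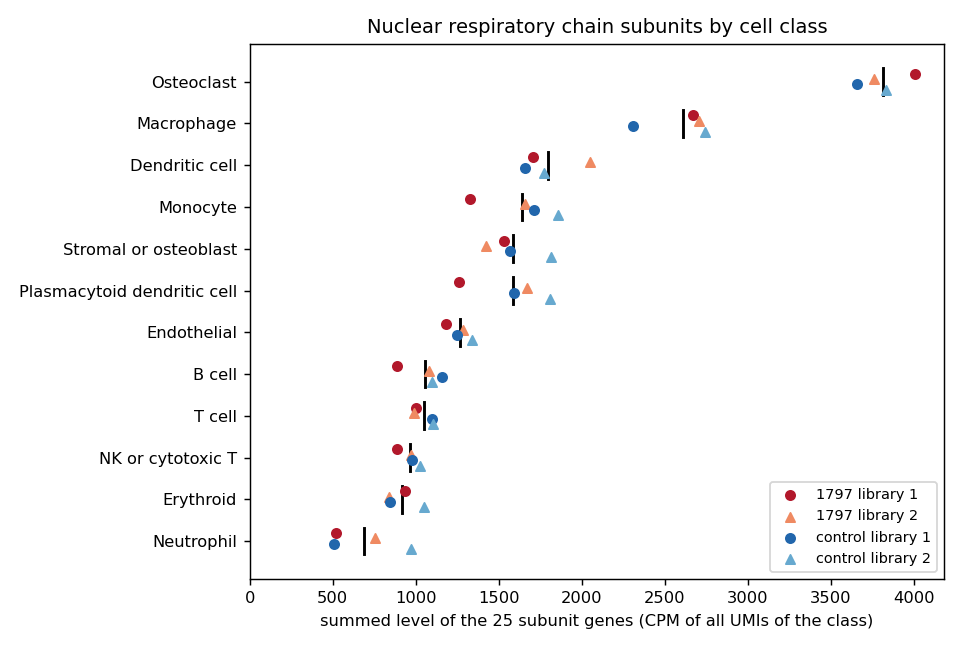
Summed level of the 25 nuclear respiratory chain genes in CPM (x axis) for the 12 cell classes (y axis); each point is 1 library and the vertical bar is the mean of the 4 libraries. Osteoclast-like libraries lie between 3658 and 4008, apart from the other 11 classes, and neutrophil-like libraries between 510 and 972; scaled to ribosomal protein UMIs instead of all UMIs, B cell-like cells are lowest.

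The place of the neutrophil-like cells depends on the scale. Against all UMIs they are lowest, but per 100 UMIs of cytosolic ribosomal protein genes they had 2.38 ± 0.237 subunit UMIs, more than T cell-like (1.099 ± 0.0485) and B cell-like cells (1.03 ± 0.0457), which were lowest on that scale. Osteoclast-like cells were highest on both scales, with 3.36 ± 0.458. Ribosomal protein genes summed to 29442 CPM in neutrophil-like cells and to 95614 in T cell-like cells. Osteoclast-like cells were also the deepest class, with library medians of 26438 to 39562 UMIs per cell against 1521 to 2187.5 in neutrophil-like cells; the part of depth in the difference was not tested.

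The top of the order was shared by most genes. In osteoclast-like cells 23 of the 25 genes had their highest mean level; the exceptions were CYCS, highest in dendritic cell-like cells, and NDUFS1, highest in plasmacytoid dendritic cell-like cells. In both osteoclast-like and macrophage-like cells all 25 genes stood above their own mean over the 12 classes, and in neutrophil-like cells 0 did. The lowest mean was in neutrophil-like cells for 11 genes, in NK or cytotoxic T-like cells for 6, in erythroid-like cells for 4, and in B and T cell-like cells for 2 each.

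Counted library by library, all 4 osteoclast-like libraries lay above all 4 neutrophil-like libraries for 25 of 25 genes, where 48% of the 8471 genes compared did so. Against macrophage-like cells the count was 20 of 25, with 11.7% of all genes. Against T cell-like cells it was 24 of 25 (33.6% of all genes), and against stromal or osteoblast-like cells 24 of 25 (29.5%). Against monocyte-like cells it was 24 of 25 (40.9%). Macrophage-like cells in turn lay above monocyte-like cells for 21 of 25 genes, with 49.7% of all genes, and above T cell-like cells for 23 of 25, with 40.4%. The median difference between osteoclast-like and macrophage-like cells was 0.61 on the log2 scale for the 25 genes and -0.18 for all genes compared. The members were chosen with earlier results of these data known, so these counts are a description.

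Within complex I the ratio of the highest to the lowest class ran from 3.97 to 15.8. NDUFS3, a core subunit of its peripheral arm, was at 169.5, 136.7, 140.2 and 109.0 CPM in the osteoclast-like cells of 1797 libraries 1 and 2 and control libraries 1 and 2, and at 7.59, 9.42, 9.21 and 8.90 in neutrophil-like cells. The means differ 15.8-fold and no libraries overlap. NDUFV2, an iron-sulfur subunit of the NADH-binding module, was at 213 ± 29.2 and 16.5 ± 3.00 CPM in the same classes, a ratio of 12.9. NDUFA9, an accessory subunit at the junction of the arms, had a ratio of 11.6 (80.2 ± 11.8 against 6.92 ± 3.06). NDUFV1, which holds the flavin that accepts electrons from NADH, was highest in osteoclast-like (63.4 ± 4.18) and lowest in B cell-like cells (7.85), a ratio of 8.08. NDUFA1, a small membrane-arm subunit, differed least of the 25 genes, 3.97-fold between osteoclast-like and neutrophil-like cells.

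**Figure D2:**
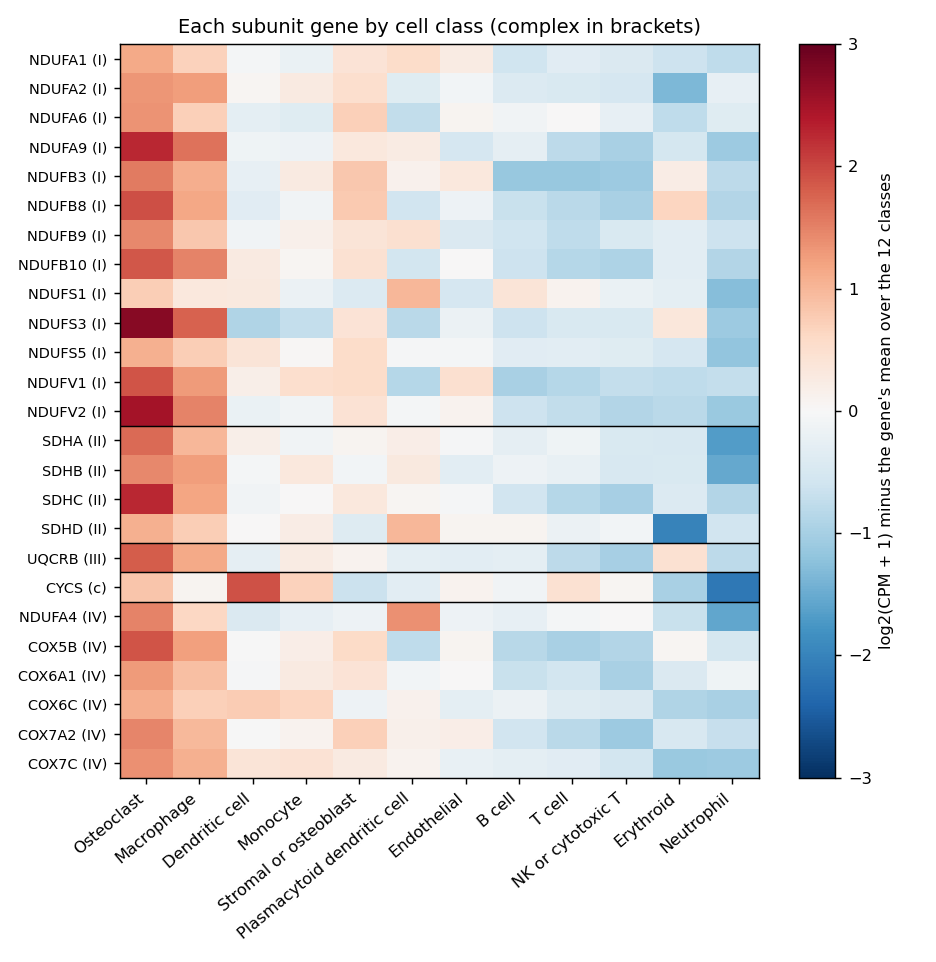
Each of the 25 genes (rows, complex in brackets) in the 12 classes (columns). Color is log2 of the mean CPM of 4 libraries plus 1, minus the gene's mean over the classes. With log2(CPM + 1) averaged over libraries instead, osteoclast-like and macrophage-like cells are above 0 for 25 of 25 genes. CYCS peaks in dendritic cell-like cells (345 CPM) and NDUFA4 has a second peak in plasmacytoid dendritic cell-like cells (344 CPM).

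NDUFS1, the large iron-sulfur subunit of the complex I arm that NADH feeds, departed from this order. Its level was 47.3, 57.1, 50.3 and 31.4 CPM in plasmacytoid dendritic cell-like cells, 46.5 ± 10.9 on average. In osteoclast-like cells it was 37.5, 36.3, 39.3 and 41.3, within the range of the plasmacytoid cells, so the 2 classes overlap. Across the 12 classes its profile had a Pearson r of 0.562 with the mean of the other members, among the 4 lowest; all such correlations share the same libraries and totals and carry no test.

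Complex II, the only complex of the chain with no subunit coded in mitochondrial DNA, followed the same order. Its 4 genes summed to 315, 279, 280 and 293 CPM in osteoclast-like cells, and to 28.3, 37.6, 31.0 and 46.6 in neutrophil-like cells. SDHA, which oxidises succinate, had a ratio of 11.8 between those classes, and SDHC, one of the membrane anchors, of 10.6 between osteoclast-like (90.1 ± 3.98) and NK or cytotoxic T-like cells (8.49 ± 1.95). SDHD, the other anchor, was the exception, with its lowest level in erythroid-like cells, at 4.97, 1.54, 4.78 and 0 CPM. These values are near the floor, and SDHD had too few counts to be tested in that class. Its r with the other members, which takes in that class, was 0.610. Plasmacytoid dendritic cell-like cells, at 29.8 ± 9.89, were as high for SDHD as osteoclast-like cells, at 31.3 ± 4.66, within their spread.

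CYCS, the carrier between complexes III and IV that also takes part in apoptosis, had the lowest r with the other members, 0.466, and the widest ratio, 17.2. It was at 417.9, 475.9, 247.5 and 237.7 CPM in dendritic cell-like cells, above all libraries of every other class of the 12. Osteoclast-like cells came next with 197.9, 157.7, 148.2 and 154.7, close to monocyte-like cells at 148 on average. T cell-like cells (126 on average) lay above macrophage-like cells (97.8) in the mean, the reverse of the order of the other members, but their libraries overlapped. Neutrophil-like cells were at 20.1 ± 4.05. For UQCRB, the single subunit of complex III measured, osteoclast-like cells were at 95.7 ± 15.7 CPM and NK or cytotoxic T-like cells lowest at 12.7 ± 2.95.

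The complex IV genes had ratios from 4.22 to 8.38. COX6C, an accessory subunit, was at 563 ± 30.3 CPM in osteoclast-like cells, 443 ± 35.4 in dendritic cell-like cells and 134 ± 50.3 in neutrophil-like cells, the lowest ratio of the 6. COX5B, a regulatory subunit on the matrix side, ran from 270 ± 16.6 in osteoclast-like to 36.6 in T cell-like cells. NDUFA4, first described in complex I and now placed with complex IV, had a second high class: 351, 368, 335 and 430 CPM in osteoclast-like cells and 238, 353, 328 and 457 in plasmacytoid dendritic cell-like cells, with full overlap. Macrophage-like cells were at 203 ± 28.5, below all osteoclast-like libraries. Its r with the other members was 0.728.

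The balance of complex I to complex IV differed between classes. The ratio of summed UMIs of the 13 to the 6 genes was 0.761, 0.639, 0.695 and 0.666 in osteoclast-like cells and 0.681 ± 0.0224 in stromal or osteoblast-like cells. In dendritic cell-like cells it was 0.461, 0.429, 0.432 and 0.429, and in monocyte-like cells 0.428 ± 0.00688. The osteoclast-like and monocyte-like libraries did not overlap. Counts in 3′ libraries depend on each gene's 3′ end, so only the change of the ratio between classes can be read.

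Other listed genes of the same machinery had like profiles in part. ATP synthase subunits, 15 genes, summed to 4183 CPM in osteoclast-like and 647 in neutrophil-like cells, and their ratio to the 25 genes stayed between 0.881 (plasmacytoid dendritic cell-like) and 1.12 (stromal or osteoblast-like) in 11 classes, with 1.505 ± 0.110 in erythroid-like cells. Other nuclear subunits of complexes I, III and IV, 27 genes, ran from 2456 CPM in osteoclast-like to 404 in NK or cytotoxic T-like cells. NDUFB2, an accessory subunit of complex I in that list, went the other way: it was at 355, 185, 174 and 132 CPM in neutrophil-like cells and at 89.8 in osteoclast-like cells. Citric acid cycle genes, 17 in all, summed to 1719 CPM in osteoclast-like and 331 in neutrophil-like cells. For the assembly factors, 24 genes, the corresponding sums were 531 and 139.

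As a sum, the glycolysis genes had another order. The 21 genes summed to 7069 CPM in neutrophil-like and 5890 in osteoclast-like cells. Per UMI of the 25 subunit genes there were 11.9, 10.5, 13.4 and 7.59 glycolysis UMIs in neutrophil-like cells, against 1.48, 1.81, 1.43 and 1.46 in osteoclast-like cells. The 4 libraries of each class lay far apart. PFKFB3, which makes the activator of phosphofructokinase, was at 2353 ± 491 CPM in neutrophil-like and 105 ± 21.6 in osteoclast-like cells. The order of the sums rested on this gene: without it, the sum was lower in neutrophil-like than in osteoclast-like cells. GAPDH was highest in osteoclast-like cells, at 1940.

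Among the regulators of mitochondrial biogenesis, PPARGC1B, a coactivator of mitochondrial genes, was at 159, 155, 161 and 160 CPM in osteoclast-like cells. The next classes were endothelial-like at 27.5 ± 9.28 and macrophage-like at 25.4 ± 4.28, and neutrophil-like cells were at 1.75. Its relative PPARGC1A was at 21.3, 37.5, 22.2 and 144 CPM in osteoclast-like cells, so 1 control library set most of its mean. ESRRA, the nuclear receptor that these coactivators bind, was at 48.0 ± 8.81 in osteoclast-like and 22.3 ± 3.48 in macrophage-like cells.

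NRF1, a factor for genes of the chain, did not follow the order of the members: it was at 293 ± 1.89 CPM in T cell-like cells and lowest, at 95.7 ± 12.5, in stromal or osteoblast-like cells. TFAM, which packs and transcribes mitochondrial DNA, was likewise highest in T cell-like cells (110 ± 8.12) and lowest in neutrophil-like cells (22.3 ± 6.35). GABPA, a further factor for chain genes, ran from 42.4 ± 6.14 in dendritic cell-like to 16.8 ± 1.89 in T cell-like cells.

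Outside all lists, 3578 genes at a mean of at least 50 CPM were ranked by the likeness of their profile over the 12 classes to the mean of the members. The 5 highest were LOC100156967 (r = 0.969), COX6B (r = 0.963), LOC100524873 (r = 0.961), BCAP31 (r = 0.960), a protein of the endoplasmic reticulum, and SLC5A3 (r = 0.951), an inositol transporter. COX6B is an older symbol for a complex IV subunit; it was not matched to the name COX6B1. It was at 216, 212, 194 and 204 CPM in osteoclast-like cells and lowest in NK or cytotoxic T-like cells (38.7 ± 5.49).

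The second question is how the nuclear genes stood beside the mitochondrial ones. The 11 genes ND1 to ND6 with ND4L, CYTB and COX1 to COX3 summed to 49903 ± 7187 CPM in osteoclast-like cells, the highest class, and 35677 ± 2817 in macrophage-like cells. Plasmacytoid dendritic cell-like cells were lowest with 16116 ± 1605. COX3, the most abundant, was at 13936 CPM in osteoclast-like and 4567 in plasmacytoid dendritic cell-like cells. The mitochondrial genes thus had the same top class as the nuclear ones but another lowest class.

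Per UMI of the 25 nuclear genes there were 10.2, 13.7, 13.3 and 15.3 mitochondrial UMIs in osteoclast-like cells, and 13.1, 10.4, 8.65 and 9.34 in plasmacytoid dendritic cell-like cells, the lowest class in the mean. Lymphoid cells stood higher, with 26.7 ± 3.04 in T cell-like, 26.9 ± 2.42 in B cell-like and 25.1 ± 3.36 in NK or cytotoxic T-like cells. All 12 of those libraries (22.7 to 30.1) lay above all libraries of the osteoclast-like, macrophage-like, dendritic cell-like and monocyte-like classes. Neutrophil-like cells had 85.0, 31.1, 47.5 and 20.3, so the highest library had 4.19 times the ratio of the lowest, and the class overlapped with the lymphoid ones.

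**Figure D3:**
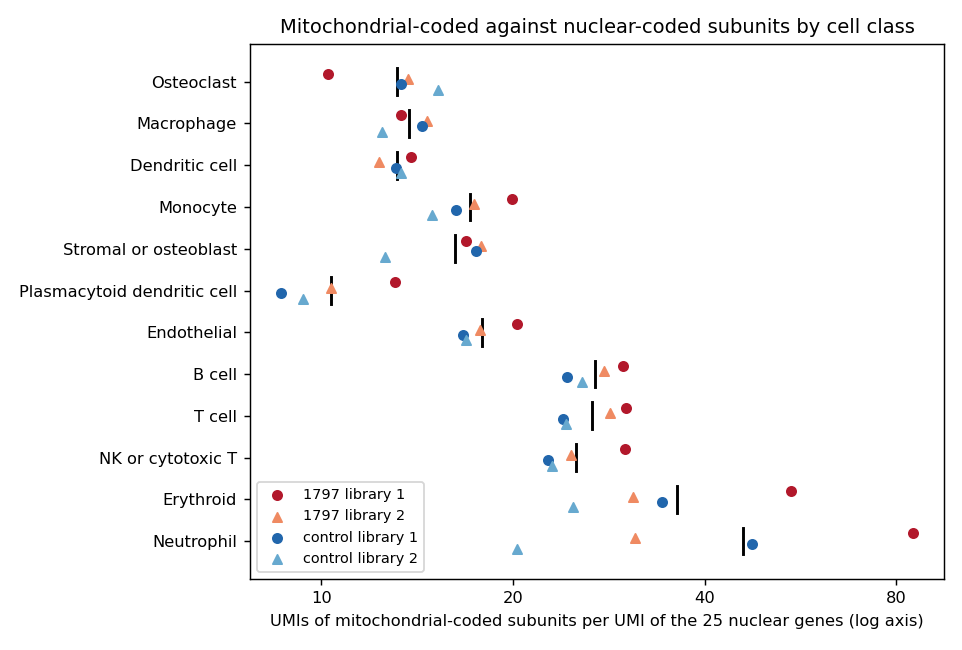
UMIs of the 11 mitochondrial genes per UMI of the 25 nuclear genes (x axis, log scale) in the 12 classes; points are libraries and bars are means of 4. The classes from osteoclast-like to endothelial-like have means of 10.4 to 17.9 and the lymphoid classes of 25.1 to 26.9, while neutrophil-like libraries range from 20.3 to 85.0.

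The clusters of the neutrophil-like class differed in level. Cluster 30, led by AZU1, PRTN3, ELANE and MPO, genes of the primary granules made by early precursors, had 2502 CPM of the 25 genes. Cluster 28, led by cathelicidin genes such as PR39, had 1428, cluster 22, led by LTF and PGLYRP1, had 1247, and cluster 8, led by S100A12 and MMP8, had 872. Clusters 0 and 4, led by LOC100525396 with CXCL8 and by IFIT2, had 392 and 352. The nuclear genes were thus 7.11-fold apart within the class.

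The mitochondrial genes did not have this order: they summed to 34952 CPM in cluster 30, 16378 in cluster 28, 14721 in cluster 22, 16312 in cluster 8, 31293 in cluster 0 and 25215 in cluster 4. Mitochondrial UMIs per nuclear UMI were 11.5 to 18.7 in clusters 30, 28, 22 and 8, and 79.8 and 71.7 in clusters 0 and 4. Clusters 0 and 4 held most of the cells, 7477 and 3401, but were shallow, with medians of 1570 and 1765 UMIs against 12757 in cluster 28. The libraries filled the clusters unequally: cluster 22 held 8 and 159 cells of the 1797 libraries and 14 and 301 of the control libraries, and cluster 8 held 149, 716, 68 and 785. Library 2 of each group, with the larger share of these clusters, had the higher summed level in the class. Within clusters 0 and 4, library 1 of each group was higher: 454 and 308 CPM with peptide 1797 and 517 and 391 with the control peptide in cluster 0, and 390.5 and 297.9 against 414.7 and 353 in cluster 4. The part of the mix of clusters in the spread between libraries was not tested. Over clusters 0 and 4 alone, an alternative chosen after seeing the data, the class was at 400.2 CPM and the ratio at 77.7.

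**Figure D4:**
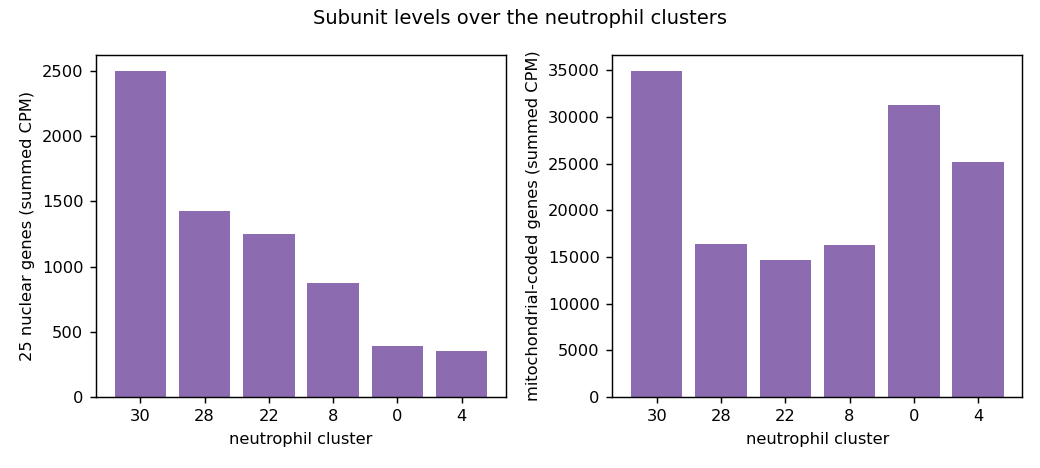
Summed CPM of the 25 nuclear genes (left) and of the 11 mitochondrial genes (right) in the 6 neutrophil-like clusters, all libraries pooled. The nuclear genes go from 2502 in cluster 30 to 352 in cluster 4, while the mitochondrial genes are lowest in cluster 22 (14721) and high at both ends.

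The third question is whether the genes differed between the 1797 and the control libraries. In edgeR's quasi-likelihood test at an adjusted p under 0.05, 0 of the 25 genes were called in any of the 13 fits (12 classes and all cells), and of erythroid-like cells only 17 of the 25 genes were tested. Over all genes the same test called 0 (0%) in 12 fits and 1 (0.0112%) in plasmacytoid dendritic cell-like cells. At an unadjusted p under 0.05 it gave 2 genes of the 25 in dendritic cell-like cells (6.37% of all genes), 2 in macrophage-like (9.34%), 1 in monocyte-like (6.92%) and 4 in T cell-like cells (5.08%). It gave 0 in the other classes, where the share of all genes was 7.08% in B cell-like, 5.54% in plasmacytoid dendritic cell-like, 4.45% in osteoclast-like, 4.41% in endothelial-like, 3.57% in NK or cytotoxic T-like, 2.4% in stromal or osteoblast-like, 1.35% in erythroid-like and 1.14% in neutrophil-like cells, and 1.59% in all cells. With 2 libraries a group, an exact permutation test has a smallest two-sided p of 1 in 3, and it was not used.

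DESeq2 called 1 of the 25 genes, CYCS in dendritic cell-like cells, where it called 0.331% of all genes. Its share of all genes was 0.758% in macrophage-like, 0.693% in monocyte-like, 0.537% in B cell-like, 0.348% in T cell-like, 0.253% in endothelial-like and 0.238% in plasmacytoid dendritic cell-like cells. It was 0.0948% in all cells, 0.0752% in NK or cytotoxic T-like, 0.0378% in osteoclast-like, 0.0171% in stromal or osteoblast-like, 0.0115% in neutrophil-like and 0% in erythroid-like cells.

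In dendritic cell-like cells CYCS was at 417.9 and 475.9 CPM with peptide 1797 against 247.5 and 237.7 with the control peptide, so the groups did not overlap. The log2 fold change was 0.91 ± 0.17 (SE), with an edgeR adjusted p of 0.602 and a DESeq2 adjusted p of 0.0475. It was between 0.82 and 1.00 with any 1 library left out. NDUFS1 in the same class was at 30.7 and 38.9 against 23.3 and 19.2 (log2 fold change 0.74 ± 0.27, edgeR adjusted p = 0.758). Of the 25 genes, 5 had both 1797 libraries above both controls there and 5 below, with 16% and 20.2% of all genes, and the median log2 fold change was -0.06 beside 0.00 for all genes. Proliferation markers (5 of 6 higher in the mean) summed to 88.5 and 93.3 CPM in the 1797 libraries against 50.9 and 83.5. B cell markers (2 of 7 higher) summed to 50.5 and 86.0 against 109 and 181. Stromal markers (0 of 11 higher) summed to 739 and 588 against 812 and 1014. Of the 18 marker lists, 2 had both 1797 libraries above both controls and 3 below. Their part was not tested.

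The log2 fold change of CYCS was above 0 in 9 of 12 classes, and in 5 of them (dendritic cell-like, macrophage-like, monocyte-like, osteoclast-like and erythroid-like) both 1797 libraries lay above both controls. Of the 7830 genes tested in at least 11 classes, 17.2% were above 0 in 9 or more and 7.32% were so separated in 5 or more. In macrophage-like cells it was at 106, 112, 85.3 and 88.3 CPM (0.39 ± 0.14, edgeR adjusted p = 0.528), and in monocyte-like cells at 160, 177, 143 and 112 (0.45 ± 0.20, edgeR adjusted p = 0.726). In erythroid-like cells, where few UMIs were counted, CYCS had the widest contrast of any member, at 82.9, 52.2, 34.7 and 15.3 CPM (log2 fold change 1.45 ± 0.75, edgeR adjusted p = 0.9997). The lowest of these libraries held 2 UMIs of CYCS, and the log2 fold change ran from 0.89 to 2.46 with 1 library left out. The class joined clusters 23 and 26, with medians of 1236 and 2420.5 UMIs, which the libraries filled unequally. Cluster 23 held 337 and 11 cells of the 1797 libraries and 113 and 16 of the control libraries. Cluster 26 held 13, 178, 194 and 21 in the same order. Without clusters of low depth, an alternative chosen after seeing the data, the log2 fold change was 0.68. That value rests on 13 cells in 1797 library 1. The part of the mix of clusters in the contrast was not tested. In T cell-like cells CYCS was at 173, 123, 137 and 72.4 CPM, with overlap. Control library 2 had the lowest value of CYCS in 8 of the 12 classes; without it the log2 fold change in T cell-like cells was 0.11 in place of 0.50, and in monocyte-like cells 0.25. The classes come from the same 4 libraries, so they are not independent of each other.

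In monocyte-like cells the other members lay lower in the 1797 libraries. The 25 genes summed to 1329 and 1656 CPM with peptide 1797 and 1709 and 1855 with the control peptide. Of them, 23 had a log2 fold change below 0 (52.2% of all genes did), with a median of -0.30 beside -0.02 for all genes. For 15 genes both 1797 libraries lay below both controls, with 24.2% of all genes, and for 1 gene (CYCS) above, with 15%. All 12 of the complex I genes other than NDUFB9 and all of complexes II and IV were among the lower. NDUFA9 was at 11.3 and 11.2 CPM against 17.3 and 17.6, a log2 fold change of -0.58 ± 0.22 (edgeR adjusted p = 0.719). NDUFS1 was at 15.6 and 17.0 against 22.3 and 24.6 (-0.47 ± 0.20, edgeR adjusted p = 0.726).

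The same libraries differed in other ways in that class. The 15 ATP synthase genes all had a log2 fold change below 0 (median -0.24), and so did 72 of 72 ribosomal protein genes (median -0.21). Relative to ribosomal protein UMIs, the 25 genes stood at 1.61% and 1.73% with peptide 1797 and 1.51% and 1.81% with the control peptide, with overlap. Median depth per cell was 10126 and 17224.5 UMIs against 17945 and 20116.5. Stromal markers (1 of 11 higher in the mean) summed to 774 and 518 CPM against 1239 and 1104, and monocyte markers (5 of 7 higher) to 2895 and 3189 against 2367 and 2616. In this class 7 of the 18 marker lists had both 1797 libraries below both controls and 1 above. The part of these in the result was not tested. Without 1797 library 1 the median of the 25 genes was -0.11, and without 1797 library 2 it was -0.46.

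T cell-like cells, the second largest class, had a similar split. The sums were 1003 and 991 CPM with peptide 1797 and 1096 and 1103 with the control peptide. Of the 25 genes, 20 had a log2 fold change below 0 (51.1% of all genes), with a median of -0.20 beside -0.01 for all genes (-0.12 without control library 2), and 10 had both 1797 libraries below both controls, with 18.3% of all genes. COX5B was at 34.0 and 27.5 against 38.8 and 46.3 (-0.46 ± 0.18, edgeR adjusted p = 0.970), and NDUFA4 at 107 and 118 against 149 and 137 (-0.34 ± 0.14, edgeR adjusted p = 0.971). Ribosomal protein genes lay the same way, 71 of 72 below 0 with a median of -0.16, and against ribosomal UMIs the libraries overlapped (1.16% and 1.07% against 1.05% and 1.11%). T cell markers (2 of 8 higher in the mean) summed to 1745 and 1905 against 2140 and 2075, and median depth was 6501.5 and 7448 against 7320 and 7802.5 UMIs. Of the 18 marker lists, 8 had both 1797 libraries below both controls and 0 above, and their part was not tested. The mitochondrial genes did not share the direction: 9 of 11 had a log2 fold change above 0 in T cell-like and 8 of 11 in monocyte-like cells.

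Macrophage-like cells went the other way. The sums were 2672 and 2705 against 2310 and 2743 CPM, with overlap, but 21 of 25 genes had a log2 fold change above 0 and 4 below (49.6% of all genes were below), with a median of 0.16 beside 0.00 for all genes. For 7 genes both 1797 libraries lay above both controls (17.5% of all genes), and for 0 below (25%). NDUFB9, an accessory subunit of complex I, was at 94.9 and 79.4 CPM against 56.5 and 72.5 (0.49 ± 0.19, edgeR adjusted p = 0.528). ATP synthase genes (13 of 15 above 0, median 0.29) and ribosomal protein genes (59 of 72, median 0.14) lay the same way. Osteoclast markers (7 of 9 higher in the mean) summed to 1281 and 1158 CPM with peptide 1797 against 606 and 939 with the control peptide, and B cell markers (3 of 7 higher) to 281 and 260 against 537 and 465. Of the 18 marker lists, 4 had both 1797 libraries above both controls and 7 below. Their part was not tested. In control library 2, 486 of 667 cells came from the shallow cluster 12, and the class median was 924 UMIs there against 6050.5 to 25771 in the others; without shallow clusters, chosen after seeing the data, the median of the 25 genes was 0.24. Without control library 1 it was 0.04.

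**Figure D5:**
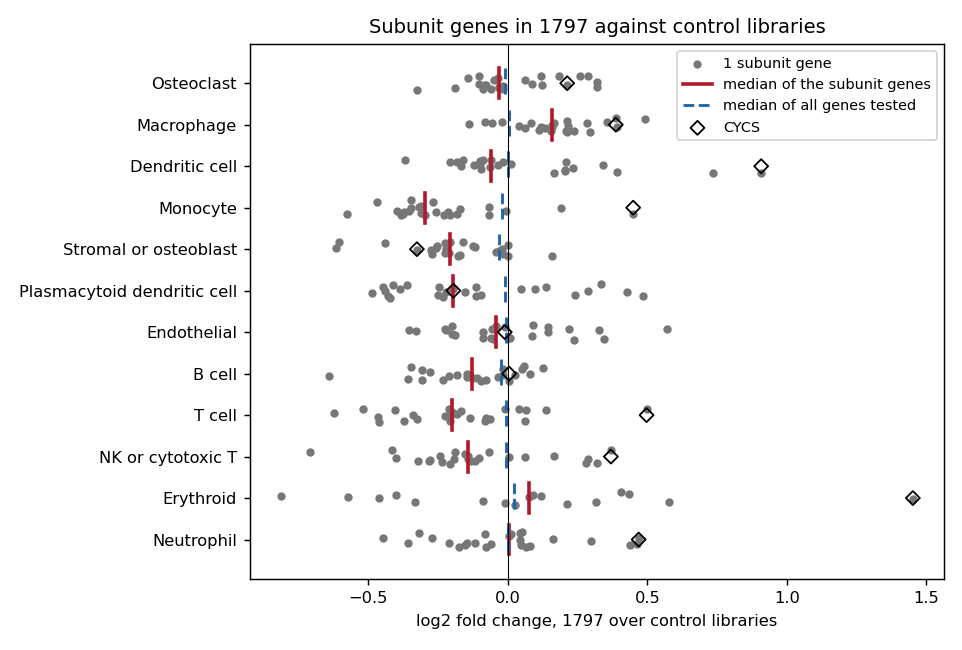
Log2 fold change of 1797 over control libraries (x axis) for each of the 25 genes (points) in the 12 classes, with the median of the 25 genes, the median of all genes tested and CYCS marked. Medians of the 25 genes run from -0.30 in monocyte-like to 0.16 in macrophage-like cells; 0 of the points passed the adjusted edgeR test.

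In the other classes the medians were -0.21 in stromal or osteoblast-like, -0.20 in plasmacytoid dendritic cell-like, -0.14 in NK or cytotoxic T-like, -0.13 in B cell-like, -0.04 in endothelial-like, -0.03 in osteoclast-like, 0.00 in neutrophil-like and 0.08 in erythroid-like cells, and 0.07 in all cells, where a different mix of cells and a different level per cell cannot be told apart. Stromal or osteoblast-like cells had 22 of 25 genes with a log2 fold change below 0 (53.2% of all genes) and 9 with both 1797 libraries below both controls (15.1%). In that class the stromal markers themselves (1 of 11 higher in the mean) summed to 65788 and 54013 CPM with peptide 1797 against 130637 and 72000 with the control peptide. Macrophage markers (8 of 8 higher) were at 66.7 and 152.9 against 60.4 and 64.4. Of the 18 marker lists, 1 had both 1797 libraries above both controls and 3 below, and median depth was 11214.5 and 28911 UMIs against 13403 and 41546. Their part was not tested. B cell-like cells had 19 below 0 (52.6%) and 8 so separated (24.5%), with 2 marker lists above and 5 below. Single libraries moved the medians of stromal or osteoblast-like, plasmacytoid dendritic cell-like, NK or cytotoxic T-like and B cell-like cells by over 1.5 times. In stromal or osteoblast-like cells the median was -0.0709 without control library 2 and -0.11 without 1797 library 2, and in B cell-like cells -0.0548 without 1797 library 1. In plasmacytoid dendritic cell-like cells it was -0.0519 without 1797 library 1, -0.0853 without control library 2 and -0.39 without 1797 library 2. In NK or cytotoxic T-like cells it was -0.0542 without 1797 library 1, -0.0326 without control library 2 and -0.28 without control library 1. Over all single omissions it ran from -0.30 to -0.0709 in stromal or osteoblast-like and from -0.20 to -0.0548 in B cell-like cells. The erythroid-like median was -0.38 without shallow clusters, so its direction turned. In osteoclast-like cells, where the level is highest, 4 genes lay above and 2 below both controls, with 16.2% and 15.8% of all genes, so their share was near that of all genes. UQCRB was at 82.7 and 87.2 CPM there against 118 and 94.7 (-0.33 ± 0.22, edgeR adjusted p = 0.997).

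Gene by gene, 2 members had 1 direction in all classes tested. NDUFB9 had a log2 fold change above 0 in 12 of 12 classes (median 0.20), as 1.26% of the 7830 genes had in all classes tested. Both 1797 libraries lay above both controls in 3 classes for NDUFB9, and in 3 or more for 26.3% of those genes. NDUFA6, an accessory subunit of complex I, had one below 0 in 11 of the 11 classes where it was tested (median -0.28), as 1.09% of the 7830 genes did, and was separated below in 7, where 2.69% were in 7 or more. In NK or cytotoxic T-like cells NDUFA6 was at 8.01 and 7.57 CPM against 15.7 and 10.1 (-0.71 ± 0.31, edgeR adjusted p = 0.999). These members were singled out after their values were seen, and the classes share their libraries.

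The ratio of mitochondrial to nuclear UMIs was higher in both 1797 libraries than in both control libraries in 6 of the 12 classes (B cell-like, T cell-like, NK or cytotoxic T-like, monocyte-like, plasmacytoid dendritic cell-like and endothelial-like) and lower in 0. In T cell-like cells it was 30.1 and 28.4 against 24.0 and 24.2, and in monocyte-like cells 19.9 and 17.4 against 16.3 and 14.9. In plasmacytoid dendritic cell-like cells it was 13.1 and 10.4 against 8.65 and 9.34. Osteoclast-like cells overlapped, at 10.2 and 13.7 against 13.3 and 15.3. There 11 of 11 mitochondrial genes had a log2 fold change below 0 (median -0.24), with 0 called by edgeR. Of all 9344 genes tested in that class, 4799 were below 0. Glycolysis UMIs per UMI of the nuclear members were also separated above in 6 classes, and below in 1. The glycolysis genes thus reached the same count, but only B cell-like and monocyte-like cells were among the 6 classes of both ratios. ATP synthase UMIs per UMI of the nuclear members were separated above in 3 classes and below in 3. The part of the shared denominator was not tested. For complex IV alone, the mitochondrial to nuclear ratio was separated above in 7 classes and below in 1. That class was osteoclast-like cells, at 15.4 and 19.0 against 19.3 and 21.2. The first 1797 library, with the highest mitochondrial share of all cells, had the highest ratio of mitochondrial to nuclear UMIs in 9 of the 12 classes. The part of that library was not tested.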

How the data were processed

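The authors deposited filtered matrices of raw UMI counts per gene and barcode, made with Cell Ranger 5.0.0 on Sscrofa11.1 per the submitters' processing notes, while per the file headers the version was 7.0.1. Whether intronic reads were counted is not given in the sources used here. Kept barcodes had at least 200 genes and a mitochondrial share (13 genes) under 20%, and Scrublet (scanpy 1.11.5, expected rate 0.1) removed 1798 doublets. Leiden clustering at resolution 1.0 used 2000 variable genes, 30 components and 15 neighbours, without 256 listed genes and without integration of libraries, so classes were not defined by the genes described. Clusters were named from fixed markers.

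Counts were summed per library and class. CPM scales each sum to the same total. Each class was fitted over all genes with edgeR 4.0.16 (quasi-likelihood, TMM, low-count filter, Benjamini-Hochberg adjustment), with DESeq2 1.42.0 as an alternative, and the test was checked on simulated data. Profiles used log2(CPM + 1). Pairs of classes were compared over 8471 genes at a mean of at least 10 CPM. Coordinates are RefSeq's for the same build, counted from 1.

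The members and lists were chosen with earlier results of these data known. All members may be named. For the contrast, each fit names the called members and up to 2 each way with the smallest p. Other lists give the 3 genes with the highest mean level, with 6 fixed regulators and the 5 most alike genes. No sequence is shown, since no promoter or protein table was used here. The promoter motif search that was planned was not run.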

Additional observations from a re-analysis of the deposited data

Results flagged for a closer look

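For 9 of the 25 genes, both 1797 libraries lay above both control libraries in at least 1 class and below them in another, as they did for 57.8% of the 7830 genes tested in at least 11 classes. The 7 of them among the genes named in the text are given here. The difference between the classes was not tested for any of them, and 0 of the values passed edgeR's adjusted threshold. NDUFS1 had a log2 fold change of 0.74 in dendritic cell-like and -0.47 in monocyte-like cells, the widest such gap. NDUFA4 had 0.17 in dendritic cell-like and -0.34 in T cell-like cells, and NDUFV1 had 0.21 in macrophage-like and -0.40 in T cell-like cells. NDUFB8, a subunit of the membrane arm of complex I, had 0.32 in osteoclast-like and -0.30 in monocyte-like cells.

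The others were 3 of the 4 subunits of complex II. SDHA had 0.39 in macrophage-like and -0.12 in dendritic cell-like cells. SDHB, its iron-sulfur subunit, had 0.34 in endothelial-like and -0.42 in plasmacytoid dendritic cell-like cells. SDHC had 0.36 in macrophage-like and -0.40 in NK or cytotoxic T-like cells.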

How the results depend on the processing

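The alternatives were other size factors, no low-count filter, a replicate block, DESeq2, fits without mitochondrial genes, omission of each library in turn, cells kept that had been called doublets, a stricter filter on cells and Leiden resolutions 0.5 and 2.0. Those without shallow clusters, over neutrophil-like clusters 0 and 4 alone and with a crossed replicate block were chosen after seeing the data. Clusters 0 and 4, called the mature clusters below, were picked by low depth and cell number and not by markers of maturity. Members called changed once: DESeq2 called 1 higher in dendritic cell-like cells, CYCS (0.91). Over all genes DESeq2 called 0 (erythroid-like) to 94 (macrophage-like) where edgeR called 0 or 1; edgeR itself called 0 to 197 (endothelial-like) without the low-count filter and 0 to 211 (erythroid-like, without 1797 library 2) with a library left out. The median log2 fold change of the 25 genes moved beyond the spread only in all cells, from -0.10 to 0.26 with a library left out. Within the spread, such omissions also turned the sign of the medians in dendritic cell-like, endothelial-like, erythroid-like, neutrophil-like and osteoclast-like cells. Of the levels and ratios, 8 of 245 moved beyond 1 SD: macrophage-like 3072 CPM at Leiden 0.5, 2129 CPM and a ratio of 16.4 at Leiden 2.0; NK or cytotoxic T-like 1116 CPM at Leiden 0.5; neutrophil-like 400.2 CPM and a ratio of 77.7 over the mature clusters; erythroid-like 799 CPM without shallow clusters; osteoclast-like 4051 CPM without mitochondrial genes in the total. The erythroid-like value without shallow clusters rests on 13 cells in 1797 library 1. The cause of these moves was not tested. Leiden 0.5 gave no osteoclast-like or monocyte-like class.

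Of 732 values of single genes, 14 changed sign. NDUFV1 in stromal or osteoblast-like cells did so without the filter (-0.0165). The others did with a library left out, over these ranges: NDUFA4 in all cells -0.37 to 0.0084, NDUFB9 in B cell-like cells -0.0268 to 0.29, SDHD there -0.0289 to 0.21, NDUFS5 in dendritic cell-like cells -0.40 to 0.0356, NDUFA6 in macrophage-like cells -0.39 to 0.0900, SDHD there -0.24 to 0.0829, NDUFB9 in monocyte-like cells -0.0461 to 0.47, SDHD in stromal or osteoblast-like cells -0.0108 to 0.30, NDUFV1 there -0.0369 to 0.0567, and NDUFS1 in T cell-like cells -0.0863 to 0.34. The replicate block (medians of -0.31 in monocyte-like, -0.21 in T cell-like and 0.17 in macrophage-like cells) changed no call of a member and called 0 or 1 of all genes. Deviations of same-numbered libraries from their group means correlated over genes from -0.258 (all cells) to 0.577 (neutrophil-like). With 2 pairs this does not show that the numbers pair the samples. The crossed block in all cells and stromal cells called 0 members. Depth limits the erythroid-like class, where 17 of 25 genes were tested. The promoter search was not run.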

Other observations

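Several unnamed or shallow clusters had more of the nuclear subunit transcripts than any named class. Cluster 7, with 2132 cells, a median of 834.5 UMIs and FABP4, CTSK, ACP5 and ATP6V0D2 among its leading genes, had 7230 CPM of the 25 genes, from 6786 to 7923 over the 4 libraries. Cluster 17, with 626 cells and bone and contractile genes in the lead (IBSP, ACTA2), had 5190 CPM. Cluster 12, macrophage-like with 1113 cells and a median of 845 UMIs, had 4849, while the deep macrophage-like cluster 10, with a median of 23429 UMIs, had 2545. Ribosomal protein genes summed to 236214, 258638 and 173561 CPM in the shallow clusters 7, 17 and 12, and to 98100 in the deep cluster 10. The part of depth was not tested.

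Plasma cell-like cells, with 13 cells in the smallest library and so outside the comparisons, had 2732 CPM with all libraries pooled. That lay between the pooled osteoclast-like (3817) and macrophage-like (2622) levels. By library they were at 1970 and 2531 CPM with peptide 1797 and 2899 and 2811 with the control peptide, which overlapped the macrophage-like libraries.

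NDUFA4L2, a relative of NDUFA4 known for its response to low oxygen, was chosen after its values were seen. It was at 180, 229, 178 and 200 CPM in pericyte or smooth muscle-like cells, at 303, 213, 941 and 289 in chondrocyte-like cells, where the control libraries had few cells, and at 25.2 ± 9.81 in stromal or osteoblast-like cells. In plasmacytoid dendritic cell-like cells it was at 0.0861, so the paralogs had separate profiles over the classes.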
